A study of Rattus norvegicus with 119 samples.

Results

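Bladder urothelium of female Sprague-Dawley rats given rosiglitazone maleate for 28 days was set against that of females given vehicle for the same time. Rosiglitazone was dosed at 10 mg/kg/day by mouth, and the vehicle was 0.5% methylcellulose. The arrays were picked by their labels of treatment, sex and day, which gave 5 rosiglitazone arrays and 5 vehicle arrays of 119 in the series. The labels give 10 dosed rats per sex and group, of which 5 were profiled, so each array is taken as a separate rat. The rats were killed a day after the last dose, the urothelium was scraped from the opened bladder and frozen, and miRNA levels were read on Agilent arrays with 1 dye. The comparison asks which urothelial miRNAs differ after 28 days of the drug in females. A scrape can carry tissue from under the epithelium, and no cells were sorted.

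Rosiglitazone is a thiazolidinedione, a drug class used in type II diabetes that activates the nuclear receptor PPAR gamma, a regulator of fat-cell differentiation that the urothelium also expresses. A miRNA is a short RNA that guides Argonaute proteins to messenger RNAs, mostly through its seed near the 5′ end, and lowers their translation or stability. The urothelium is a layered epithelium, known for high levels of the miR-200 family and miR-205, while miR-1, miR-133, miR-143 and miR-145 are known from the muscle that lies under it.

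Mature sequences from RefSeq (build GRCr8) were found for 249 of the 301 measured miRNAs, 60 by the same name and 189 through the arm that an older name stands for. The sequences below run 5′ to 3′ with the seed, bases 2 to 8, in capitals. The first 4 belong to miRNAs whose 5 rosiglitazone arrays all lay above the 5 vehicle arrays, and the next 8 to muscle miRNAs and others whose arrays lay on the other side, apart from miR-143 and miR-145, which overlapped.
miR-22 (chromosome 10): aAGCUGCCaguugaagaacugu
miR-141 (chromosome 4): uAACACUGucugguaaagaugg
miR-99b (chromosome 1): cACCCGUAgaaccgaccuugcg
miR-324-3p (chromosome 10): cCACUGCCccaggugcugcugg
miR-1 (chromosome 18): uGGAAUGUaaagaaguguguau
miR-133a (chromosome 18): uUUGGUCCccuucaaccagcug
miR-133b (chromosome 9): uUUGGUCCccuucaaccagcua
miR-143 (chromosome 18): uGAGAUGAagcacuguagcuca
miR-145 (chromosome 18): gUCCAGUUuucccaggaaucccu
miR-146a (chromosome 10): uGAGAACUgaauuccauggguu
miR-23b (chromosome 17): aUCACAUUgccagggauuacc
miR-204 (chromosome 1): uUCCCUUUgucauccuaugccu

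A second set is shown because its values hang mostly on 1 or 2 rosiglitazone arrays. The first 5 share the miR-15/16 seed, and miR-878 and miR-743a come from the X-linked miRNA cluster next to Fmr1.
miR-15b (chromosome 2): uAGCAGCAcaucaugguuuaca
miR-16 (chromosome 2): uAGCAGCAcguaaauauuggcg
miR-195 (chromosome 10): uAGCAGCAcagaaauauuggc
miR-322 (chromosome X): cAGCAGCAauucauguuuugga
miR-497 (chromosome 10): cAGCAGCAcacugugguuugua
miR-878 (chromosome X): gCAUGACAccauacuggguaga
miR-743a (chromosome X): gAAAGACGccaaacuggguaga
miR-494 (chromosome 6): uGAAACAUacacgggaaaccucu

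Values are the authors' log2 intensities, which ran from 2.69 to 16.87 over the series, and many miRNAs lay near the lower end, where differences can be compressed. Of the 119 arrays, 3 were marked by the submitters as failing quality control and left out, none of them among the 10 arrays compared here. Differences are log2 levels, rosiglitazone minus vehicle, from a limma fit of 24 group means over 116 arrays, so each standard error (SE) rests on the spread over all groups. With 5 arrays a group the half-width of the 95% interval had a median of 1.07.

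Rosiglitazone replicates 3 and 4 stood apart from the other arrays, although the labels mark both as passing quality control. Over the 301 miRNAs, their correlations with the vehicle mean were 0.853 and 0.659, against 0.977 to 0.983 for rosiglitazone replicates 1, 2 and 5. Each vehicle array correlated with the mean of the other vehicle arrays at 0.974 to 0.994. In replicate 4, 25 miRNAs lay over 2 log2 units above the vehicle mean and 95 lay over 2 below it, and in replicate 3 these counts were 13 and 52. In rosiglitazone replicates 1, 2 and 5, no array had more than 1 above and 5 below. The array most like replicate 4 in the series was a vehicle male of day 28, at a correlation of 0.829, ahead of replicate 3 at 0.799.

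The medians of these 2 arrays were also the lowest of the 10. The array medians of rosiglitazone replicates 1 to 5 were 5.57, 5.62, 4.13, 3.87 and 5.39, against 5.36, 5.60, 5.18, 5.65 and 4.29 in vehicle replicates 1 to 5. Vehicle replicate 5 came next. The mean difference of medians was -0.30 (exact two-sided permutation test, p = 0.532, smallest possible 0.00794), and without replicates 3 and 4 it was 0.31 (p = 0.464). In replicate 4 the difference from vehicle also went with base composition. Its median was -1.29 over 96 miRNAs with under 45% G and C, -0.87 over 101 with 45 to under 55%, and -0.08 over 52 with 55% or more. The same 3 medians were -0.29, -0.29 and -0.14 in replicate 3, and lay between 0.06 and 0.39 in replicates 1, 2 and 5. The correlation of the difference with the percentage of G and C was 0.32 in replicate 4. Over the vehicle arrays it ran from -0.28 in replicate 3 to 0.14 in replicate 5. The part of base composition in the results below was not tested. Differences are given with all 5 rosiglitazone arrays, and most of them also without replicates 3 and 4, an alternative chosen after the arrays were seen.

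**Figure D1:**
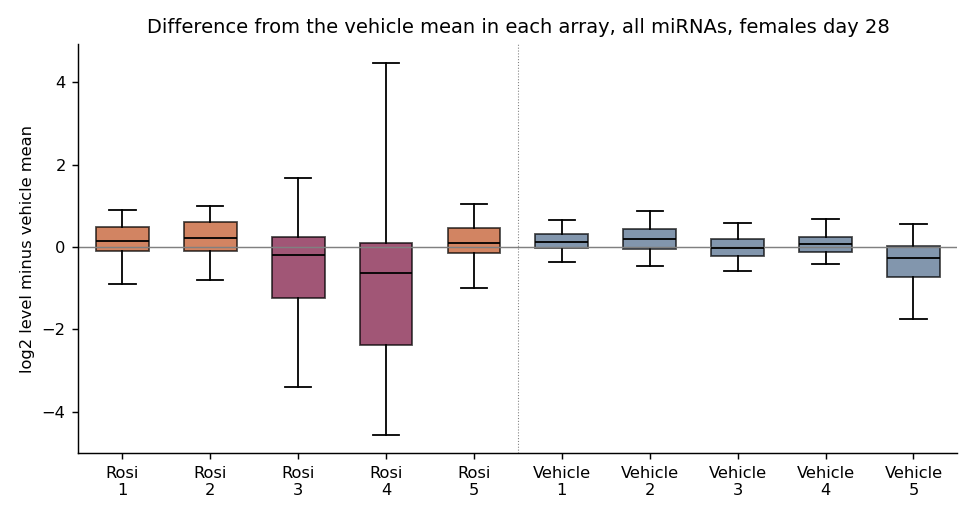
Each box shows, for 1 array, the difference of 301 miRNAs from the vehicle mean on the log2 scale, with the median, the quartiles and whiskers at the 5th and 95th percentiles. For a vehicle array the mean is that of the other 4. The boxes of rosiglitazone replicates 3 and 4 are the widest and their medians lie at -0.20 and -0.63, while those of replicates 1, 2 and 5 lie between 0.11 and 0.23.

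No miRNA passed the adjusted threshold of 0.05 between rosiglitazone and vehicle females at day 28 (0 of 301, 0%, limma with Benjamini-Hochberg adjustment). At an unadjusted p under 0.05 there were 38 (12.6%), 28 higher (9.3%) and 10 lower (3.32%) with rosiglitazone. Replicate 4 was the highest rosiglitazone array for 21 of the 28 and replicate 3 for 6, and the last was miR-22, highest in replicate 1. Replicate 4 was the lowest array for 10 of the 10 lower miRNAs. Without both arrays 6 miRNAs had an unadjusted p under 0.05, all higher, and 2 of them were among the 38. That count depended on the fit: held to the 2 groups alone, also without both arrays, it was 61, with 0 past the adjusted threshold. The 28 higher and the 10 lower miRNAs had the same sign without both arrays, but the difference shrank to 50% or less for 21 of the higher and 6 of the lower ones.

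A rule that ignores the size of the spread asks whether the 5 rosiglitazone arrays and the 5 vehicle arrays overlap at all. They did not for 21 miRNAs (6.98%), of which 12 lay higher (3.99%) and 9 lower (2.99%) with rosiglitazone. Leaving out replicates 3 and 4 cannot make such groups overlap, and for 16 of the 21 the difference then moved by less than 1.5-fold. With only 3 rosiglitazone arrays the same rule marks more miRNAs, 60 of 301 (19.9%). Over all 301 miRNAs the difference had a median of -0.09 with every array and 0.17 without the pair, and centring each array on its median moved it to 0.21 and -0.14.

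**Figure D2:**
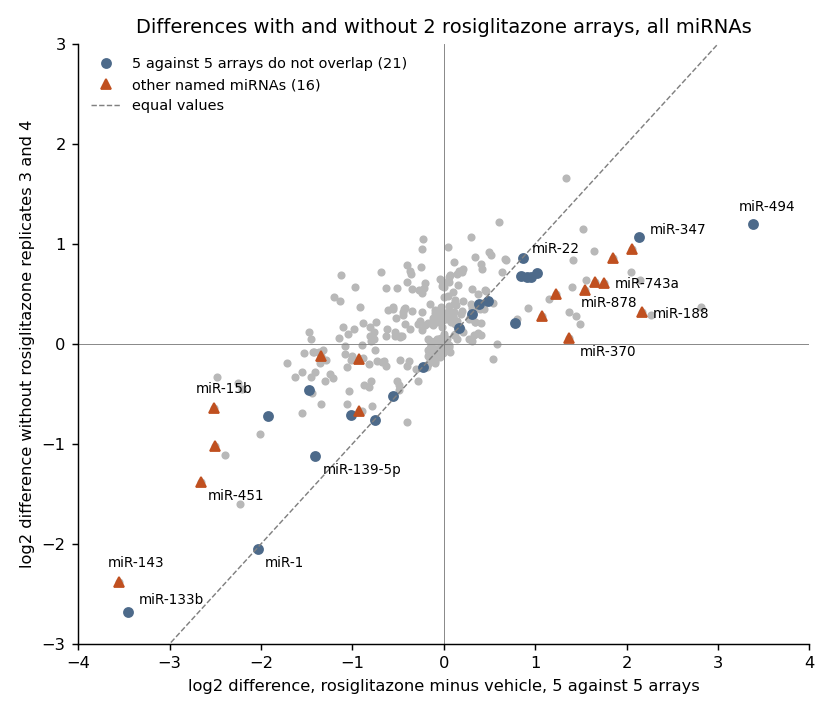
Each point is 1 of 301 miRNAs, with the log2 difference between rosiglitazone and vehicle females on the x axis and the same difference without rosiglitazone replicates 3 and 4 on the y axis. miR-22, miR-1 and miR-141 lie near the line of equal values, while miR-188 and miR-370 have values of 0.31 and 0.06 on the y axis, against 2.16 and 1.37 on the x axis.

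Most muscle miRNAs had negative differences, with and without replicates 3 and 4, but none passed the adjusted threshold. At an unadjusted p under 0.05 there were 2 of 8, miR-133b and miR-143. Over all 301 miRNAs that share was 12.6% in either direction and 3.32% on the lower side. Of the 8 muscle miRNAs measured, 7 had negative differences with the 5 arrays and 7 without the pair, where miR-499 turned to 0.63 and miR-133a* to -0.08. For miR-1, miR-133a and miR-133b no rosiglitazone array reached the lowest vehicle array. Groups without overlap made up 6.98% of all 301 miRNAs, and 2.99% on the lower side. The mean level of the 8 ran from 3.70 to 5.48 over rosiglitazone arrays and from 5.53 to 7.04 over vehicle arrays. The list's median difference was -1.30, and -1.06 without replicates 3 and 4, beside -0.09 and 0.17 over all miRNAs. In a bulk scrape, fewer cells of a type and less RNA per cell cannot be told apart.

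miR-133b, which is transcribed together with miR-206 in muscle, read 5.85, 4.76, 3.36, 3.31 and 5.25 in rosiglitazone replicates 1 to 5, against 8.21, 6.30, 8.56, 8.96 and 7.78 in vehicle replicates 1 to 5. The highest rosiglitazone array lay under the lowest vehicle array, and replicates 3 and 4 were lowest, close to the floor of the table. The difference was -3.46 (SE 1.71, adjusted p = 0.379), and -2.68 without both arrays. miR-1, the muscle miRNA most studied for repressing growth genes in heart and skeletal muscle, read 5.15, 4.60, 5.30, 4.89 and 5.39 with rosiglitazone, against 6.95, 5.62, 7.78, 7.91 and 7.24 with vehicle. Here replicates 3 and 4 lay among the other rosiglitazone arrays. The difference was -2.04 (SE 1.33, adjusted p = 0.508) and -2.06 without them. miR-133a has the mature sequence of miR-133b up to the last base, and whether a probe for either reads both was not tested. It lay between 3.09 and 3.29 with rosiglitazone and between 3.36 and 4.19 with vehicle, near the floor in both.

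miR-143 and miR-145, made from 1 transcript and known to keep smooth muscle contractile, lay lower as well but overlapped. miR-143 read 10.21, 8.46, 9.13, 4.01 and 9.89 in rosiglitazone replicates 1 to 5, against 12.10, 10.20, 11.75, 12.60 and 12.86 in vehicle replicates 1 to 5. Vehicle replicate 2, the lowest vehicle array also for miR-1 and miR-133b, was level with rosiglitazone replicate 1, and replicate 4 lay far below all others. The difference was -3.56 (SE 1.59, adjusted p = 0.379), and -2.38 without replicates 3 and 4. miR-145 averaged 5.33 ± 1.37 in rosiglitazone arrays, against 7.55 ± 1.13 in vehicle arrays (SD, n = 5 each), a difference of -2.23 (adjusted p = 0.590), or -1.60 without the pair. miR-499, the cardiac and slow-muscle miRNA on the list, differed by -0.02, and miR-133a* by 0.07, the 1 positive member. With the fit held to the 2 groups alone, the differences in miR-133b and miR-1 had adjusted p = 0.0551 and 0.0558.

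Fibroblast and mesenchymal miRNAs, a list that overlaps the muscle one in miR-143*, miR-143 and miR-145, had a smaller median difference once the pair of arrays was out. Of 11 members 9 had negative differences, with a median of -1.30, which was -0.37 without replicates 3 and 4. Their mean level ran from 4.18 to 7.41 over rosiglitazone arrays and from 7.06 to 7.97 over vehicle arrays. miR-199a-3p and miR-214, made from 1 antisense transcript in connective tissue cells, differed by -2.39 and -2.01, and by -1.11 and -0.90 without both arrays. miR-10b, a Hox-cluster miRNA, read 5.57 in replicate 4 and 10.18 to 10.61 in the other rosiglitazone arrays, against 10.22 to 10.72 with vehicle. The endothelial miRNA miR-126 read 4.90 in replicate 4 and 9.32 to 11.04 in the other rosiglitazone arrays, against 9.63 to 10.53 with vehicle, and its difference of -1.05 became 0.10 without the pair.

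The epithelial miRNAs were divided in sign. Of 12 members 6 had positive and 6 negative differences, and 10 were positive without replicates 3 and 4, where the median was 0.29 beside 0.17 over all miRNAs. The mean level of the 12 per array ran from 9.27 to 10.85 with rosiglitazone and from 10.04 to 10.72 with vehicle. miR-205, known from stratified epithelia, averaged 13.38 ± 0.35 in rosiglitazone and 13.04 ± 0.07 in vehicle arrays (SD, n = 5 each). miR-200a averaged 13.55 ± 0.49 in rosiglitazone and 13.57 ± 0.15 in vehicle arrays. Signal for miR-205 and miR-200a was therefore present in all 10 arrays, as the tissue label says. Not all members held up in replicates 3 and 4. There miR-96 differed from the vehicle mean by -6.17 and -3.53 and miR-183 by -3.10 and -4.64, while miR-141 differed by 1.24 and 0.95. Muscle and stromal miRNAs were not above the floor throughout either. miR-143, on both lists, read 10.20 to 12.86 in vehicle arrays but 4.01 in rosiglitazone replicate 4, and miR-133b read 3.36 and 3.31 in rosiglitazone replicates 3 and 4.

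Within the miR-200 family, which represses Zeb1 and Zeb2 and so holds the epithelial state, miR-141 and miR-429 lay higher in every rosiglitazone array. They were the 2 of 12 epithelial miRNAs without overlap, beside 3.99% on the higher side and 6.98% either way over all 301. miR-141 read 13.02, 12.89, 13.48, 13.18 and 12.84 in rosiglitazone replicates 1 to 5, against 12.34, 12.57, 11.94, 12.21 and 12.12 in vehicle replicates 1 to 5. Replicates 3 and 4 were the highest for miR-141, though they were low for most miRNAs. The difference was 0.85 (SE 0.61, adjusted p = 0.538), 0.68 without the pair, and 0.37 when the remaining arrays were also centred on their medians. miR-429 read 12.79, 12.68, 12.80, 12.39 and 12.42 with rosiglitazone, against 12.30, 12.36, 12.14, 12.11 and 12.26 with vehicle, a difference of 0.38 (SE 0.63, adjusted p = 0.882). The gap between the groups was narrow, 0.03 between the lowest rosiglitazone and the highest vehicle array. miR-200a, miR-200b and miR-200c of the same family differed by -0.02, -0.08 and 0.33. From the other strands of these hairpins, miR-200a* differed from the vehicle mean by -1.50 and -1.48 in replicates 3 and 4. In the same arrays miR-200b* differed by -2.27 and -3.09. Of the miR-183, miR-96 and miR-182 cluster, miR-183 and miR-96 were lowest in replicates 3 and 4. miR-96 read 10.16, 10.44, 4.11, 6.75 and 8.88 with rosiglitazone, against 9.80 to 10.78 with vehicle.

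miR-22, a broadly expressed miRNA described in fat and heart metabolism, had the smallest p among the miRNAs whose groups did not overlap. It read 13.18, 13.00, 13.11, 12.99 and 12.89 in rosiglitazone replicates 1 to 5, against 11.96, 12.09, 12.31, 11.98 and 12.49 in vehicle replicates 1 to 5. Every rosiglitazone array lay above every vehicle array, and replicates 3 and 4 lay inside the range of the other 3. The mean was 13.03 ± 0.11 over rosiglitazone arrays, against 12.17 ± 0.23 over vehicle arrays (SD, n = 5 each). The difference was 0.87 (SE 0.29, unadjusted p = 0.0033, adjusted p = 0.191) in the fit over all groups, and 0.86 without replicates 3 and 4 (adjusted p = 0.988). With only the 2 groups in the fit its adjusted p was 0.0429, the 1 miRNA called there. Under limma weights for array quality, which called 33 miRNAs, the difference was 0.99 (adjusted p = 1.8e-08).

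**Figure D3:**
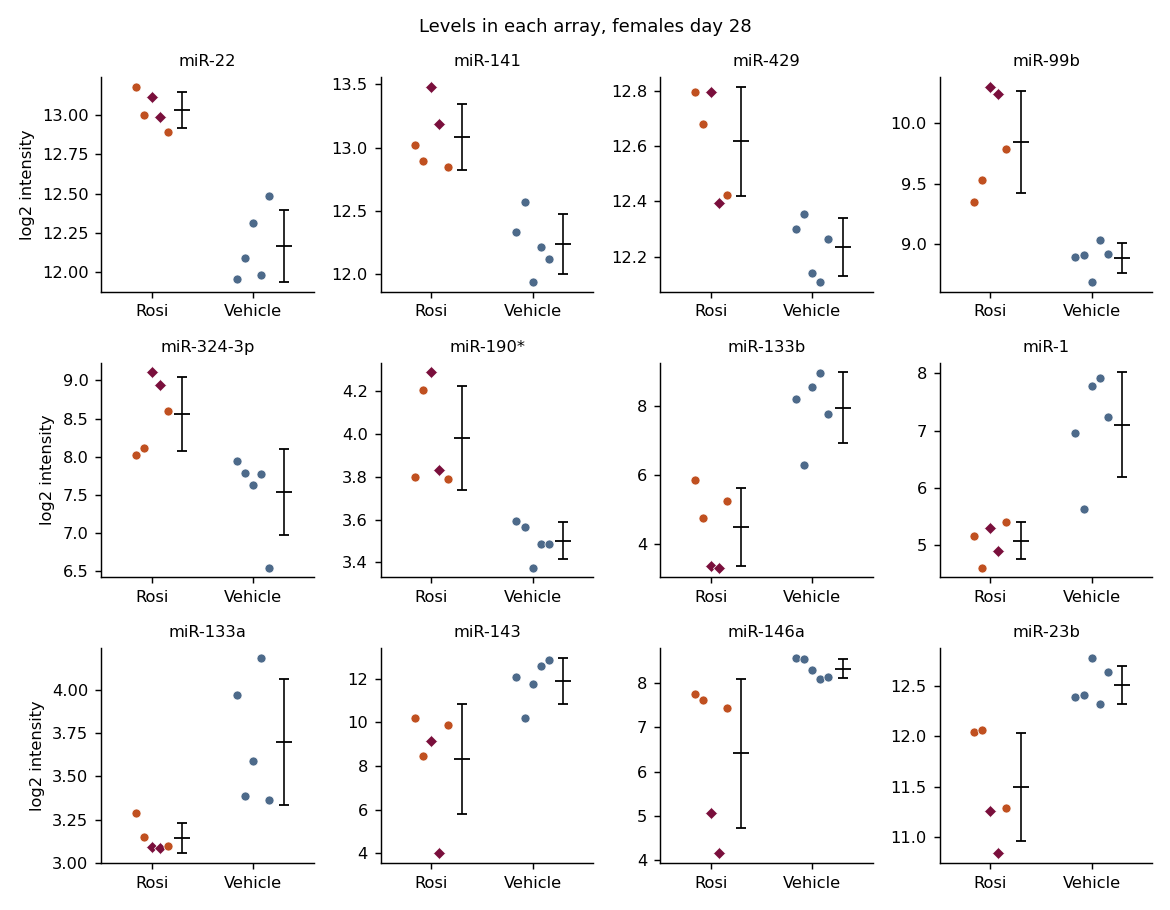
Points are the log2 intensities of 12 miRNAs in each array of the rosiglitazone (left) and vehicle (right) females of day 28. Diamonds are rosiglitazone replicates 3 and 4, and the bars show the mean and SD. miR-143 is the panel where the groups overlap, and miR-22 and miR-1 are panels where the diamonds lie among the other rosiglitazone arrays.

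Of 30 measured miRNAs from work on fat-cell differentiation, the process that thiazolidinediones drive in fat, 2 were higher and 2 lower at an unadjusted p under 0.05, a share near the 12.6% over all miRNAs, and none passed after adjustment. The median difference was -0.17, and 0.21 without replicates 3 and 4, close to the all-miRNA medians. Apart from miR-22, the members without overlap were miR-30a* and miR-204, both lower with rosiglitazone. miR-30a* read 6.30, 6.28, 3.71, 3.49 and 5.83 with rosiglitazone, against 6.35 to 6.82 with vehicle, and its difference of -1.47 became -0.46 without the pair. Of 5 miRNAs described to target Pparg itself, none passed the threshold. miR-27a differed by -0.10 and miR-130a by -0.02, which became 0.34 and 0.32 without the pair, and the 5 had a median of -0.10, or 0.32 without replicates 3 and 4.

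Among the other miRNAs without overlap, several kept their size without replicates 3 and 4. miR-204, from an intron of Trpm3, averaged 3.32 ± 0.14 with rosiglitazone and 4.07 ± 0.36 with vehicle, close to the floor. The difference was -0.76 both ways (adjusted p = 0.717 with all arrays). miR-211, from an intron of Trpm1, has the same seed, and differed by 0.17 with both groups near the floor. miR-139-5p, from an intron of Pde2a, read 4.03, 3.90, 3.10, 3.23 and 3.76 with rosiglitazone, against 5.22, 4.62, 5.04, 5.89 and 4.29 with vehicle. All its rosiglitazone arrays lay under the vehicle arrays, and the difference was -1.41 (SE 0.93, adjusted p = 0.508), or -1.12 without the pair. miR-23b, of the cluster that also holds miR-27b, averaged 11.50 ± 0.54 with rosiglitazone and 12.51 ± 0.19 with vehicle, a difference of -1.01 (SE 1.07, adjusted p = 0.748), or -0.71 without the pair.

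On the higher side, miR-99b, which is made with let-7e and miR-125a, read 9.35, 9.53, 10.30, 10.24 and 9.78 with rosiglitazone, against 8.89, 8.91, 8.69, 9.03 and 8.91 with vehicle. The vehicle arrays lay close together, and replicates 3 and 4 were the highest of the rosiglitazone arrays. Its difference was 0.95 (SE 0.68, adjusted p = 0.537), and 0.67 without the pair. miR-324-3p averaged 8.56 ± 0.48 with rosiglitazone and 7.54 ± 0.56 with vehicle, a difference of 1.02 that became 0.71. Both strands of the miR-190 hairpin, in an intron of Tln2, lay higher, by 0.91 for miR-190 (0.67 without the pair) and 0.48 for miR-190* (0.43). miR-190* read 3.80, 4.20, 4.29, 3.83 and 3.79 with rosiglitazone, against 3.60, 3.56, 3.38, 3.48 and 3.49 with vehicle, a narrow separation close to the floor. For let-7a-1* and miR-7b the differences were 0.31 and 0.78, and they and miR-211 turned to -0.02, -0.10 and -0.15 when arrays were centred without replicates 3 and 4. For miR-431, of the Dlk1-Dio3 cluster, the difference was -0.23, and centring the arrays turned it to 0.07.

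The 2 smallest p-values belonged to miRNAs that were far higher in replicate 4 than in the other arrays. miR-878 read 4.36, 4.13, 3.54, 9.95 and 3.96 in rosiglitazone replicates 1 to 5, against 3.58, 3.58, 3.54, 3.64 and 3.32 in vehicle replicates 1 to 5. Replicate 4 stood over 5 log2 units above every other array of either group, and replicate 3 lay among the vehicle arrays. Rosiglitazone replicates 1, 2 and 5 also lay above every vehicle array, by far less. The difference was 1.66 (SE 0.44, adjusted p = 0.0582), and 0.62 without the pair. miR-743a, its neighbour on chromosome X, read 4.18, 4.14, 3.59, 10.35 and 4.00 with rosiglitazone, against 3.85, 3.58, 3.39, 3.34 and 3.30 with vehicle, with a difference of 1.76 (SE 0.48, adjusted p = 0.0582) and 0.61 without the pair. For miR-743a too, rosiglitazone replicates 1, 2 and 5 lay above every vehicle array. With limma weights for array quality the differences were 0.64 for miR-878 and 0.63 for miR-743a (adjusted p = 0.0019 and 0.0106). The highest values in the other 115 arrays were 6.16 for miR-878 and 6.19 for miR-743a. Both miRNAs are known in rodents mainly from the testis.

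The same array held the highest value of the 116 for miR-345-3p (10.20), miR-202* (11.83), miR-483* (8.48) and miR-347 (13.42). For miR-188, miR-370 and miR-208* it was second to 1 vehicle female of day 90. miR-188 read 4.04, 4.18, 5.46, 11.97 and 4.05 with rosiglitazone, against 3.33 to 4.47 with vehicle. Its difference of 2.16 became 0.31 without replicates 3 and 4, and that of miR-370 went to 0.06. miR-494, of the Dlk1-Dio3 cluster, was high in both arrays: it read 7.21, 6.04, 11.63, 11.93 and 5.69 with rosiglitazone, against 5.43, 4.49, 5.07, 5.14 and 5.43 with vehicle. The groups did not overlap, and the difference of 3.39 became 1.20. miR-347 also lay above every vehicle array in all 5 rosiglitazone arrays, with 9.21, 9.53, 11.20, 13.42 and 10.15 with rosiglitazone, against 8.02 to 8.76 with vehicle. The 31 miRNAs of the Dlk1-Dio3 cluster as a whole had a median difference of 0.02, with 17 positive and 14 negative.

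**Figure D4:**
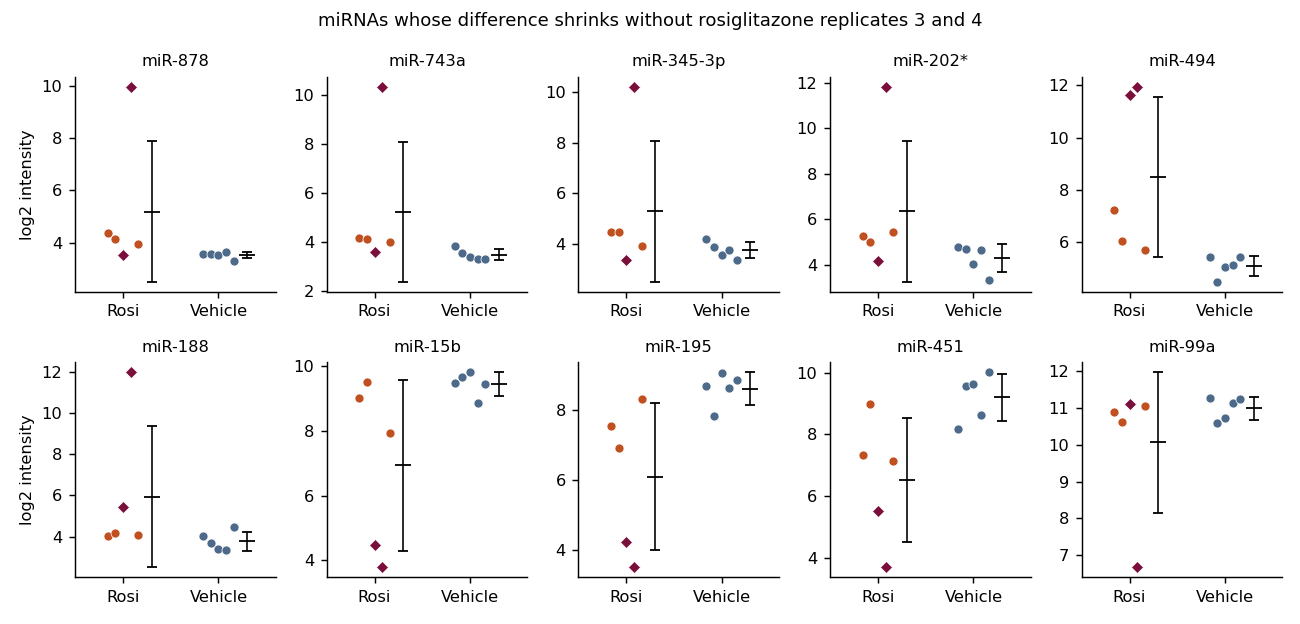
Points are log2 intensities of 10 miRNAs in each rosiglitazone (left) and vehicle (right) female of day 28, with the mean and SD as bars and rosiglitazone replicates 3 and 4 as diamonds. miR-878, miR-743a, miR-345-3p, miR-202*, miR-188 and miR-99a rest mostly on replicate 4, while miR-494, miR-15b and miR-195 rest mostly on both.

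Some lower differences rested on the same arrays. The miR-15/16 family, known to restrain cyclins and other drivers of the cell cycle, had negative differences in 5 of 5 members that share the seed AGCAGCA, with a median of -2.25, and -0.49 without replicates 3 and 4. miR-15b read 9.02, 9.51, 4.46, 3.78 and 7.93 with rosiglitazone, against 9.48, 9.67, 9.82, 8.87 and 9.44 with vehicle. Replicates 3 and 4 lay over 3 log2 units below the rest. Rosiglitazone replicates 1 and 2 lay within the vehicle range, and replicate 5, at 7.93, lay under the lowest vehicle array. Its difference was -2.52 (SE 1.24, adjusted p = 0.379), and -0.64 without the pair. miR-195, next to miR-497 on chromosome 10, differed by -2.51 and by -1.02 without the pair. The 8 let-7 miRNAs that share the seed GAGGUAG, known for repressing Lin28 and growth genes, also had 8 negative differences, with a median of -0.81. Without replicates 3 and 4 their median was 0.00, with 4 positive and 4 negative. let-7b was the one with an unadjusted p under 0.05, at 12.75, 13.79, 13.40, 12.46 and 14.19 with rosiglitazone, against 14.09 to 14.56 with vehicle. Its difference was -0.93, and -0.67 without the pair.

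Of 10 inflammation miRNAs 1 had groups without overlap, near the 6.98% over all miRNAs. miR-146a, which is induced by NF-kappaB and targets Irak1 and Traf6, read 7.77, 7.62, 5.07, 4.15 and 7.45 in rosiglitazone replicates 1 to 5, against 8.58, 8.55, 8.31, 8.09 and 8.15 in vehicle replicates 1 to 5. All 5 rosiglitazone arrays lay below the vehicle arrays, with replicates 3 and 4 far below. The difference was -1.93 (SE 0.93, adjusted p = 0.379), and -0.72 without the pair. Its relative miR-146b, with the same seed, differed by -1.37 and by -0.09 without the pair, and miR-21, a miRNA of injury and tumours, by -0.48 and 0.08. The 10 members had a median of -0.52, and 0.06 without both arrays.

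Blood-cell miRNAs were read as markers of what else a scrape may hold. miR-451, the main miRNA of red cells, read 7.34, 8.98, 5.52, 3.71 and 7.15 with rosiglitazone, against 8.18, 9.56, 9.64, 8.62 and 10.01 with vehicle. The lowest arrays were replicates 4 and 3, and replicate 2 lay within the vehicle range. The difference was -2.66 (SE 1.28, adjusted p = 0.379), and -1.38 without the pair. Of leukocyte miRNAs, miR-223 differed by -0.40, miR-142-3p by -0.67 and miR-150* by 2.15, with 11.05 in replicate 4. Without replicates 3 and 4 these differences were -0.78, -0.18 and 0.64. The list was split in replicates 3 and 4, where miR-150 differed from the vehicle mean by -2.99 and -3.18. There miR-142-5p differed by -2.11 and -1.96, and miR-150* by 1.91 and 6.92. The mean level of 3 red-cell miRNAs ran from 3.85 to 6.57 over rosiglitazone arrays and from 5.73 to 6.83 over vehicle arrays, and that of 5 leukocyte miRNAs from 5.73 to 6.36 and from 5.73 to 6.72. Their part in the differences above was not tested. For the 12 miRNAs of the miR-17-92 cluster and its paralogs the median was -0.49, and 0.31 without replicates 3 and 4. For 7 p53-responsive miRNAs it was 0.19 and 0.43, and for 5 of the miR-29 family -0.40 and 0.36. None of these lists had a member past the adjusted threshold.

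The rosiglitazone effect at day 28 in females was then tested against the same effect at the other times. Against day 3, 0 of 301 miRNAs passed (0%, limma, 35 at an unadjusted p under 0.05), and against day 90 also 0 (0%, 34 unadjusted). The smallest p against day 3 belonged to miR-431 (-0.72, SE 0.23) and miR-409-3p (1.48, SE 0.52), each with adjusted p = 0.410. Against day 90 they belonged to miR-370 (2.80, SE 0.73, adjusted p = 0.0666) and miR-327 (5.13, SE 1.56, adjusted p = 0.112). In females of day 28 miR-327 read 9.49 and 7.99 in rosiglitazone replicates 3 and 4 and miR-370 read 9.26 in replicate 4. The highest values of the other 115 arrays were those of 1 vehicle female of day 90, 11.46 for miR-327 and 9.70 for miR-370.

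Muscle miRNAs varied widely between rats in the other groups. miR-133b averaged 9.26 ± 2.01 with rosiglitazone and 7.75 ± 3.00 with vehicle in females at day 3, and 9.72 ± 2.97 and 7.77 ± 3.25 at day 90 (SD, n = 5 each). The vehicle females of day 28 had an SD of 1.03 for it. The difference at day 28 was lower than at day 3 by 4.98 (SE 2.42, adjusted p = 0.420) and lower than at day 90 by 5.41 (SE 2.42, adjusted p = 0.388). miR-22 averaged 12.79 ± 0.96 with rosiglitazone and 12.78 ± 0.66 with vehicle at day 3, and 12.96 ± 0.29 and 12.54 ± 0.36 at day 90. Its day-28 difference exceeded those by 0.86 (adjusted p = 0.420) and 0.44 (adjusted p = 0.745). The vehicle females of day 28 had the lowest mean miR-22 of the 6 rosiglitazone and vehicle groups in females.

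**Figure D5:**
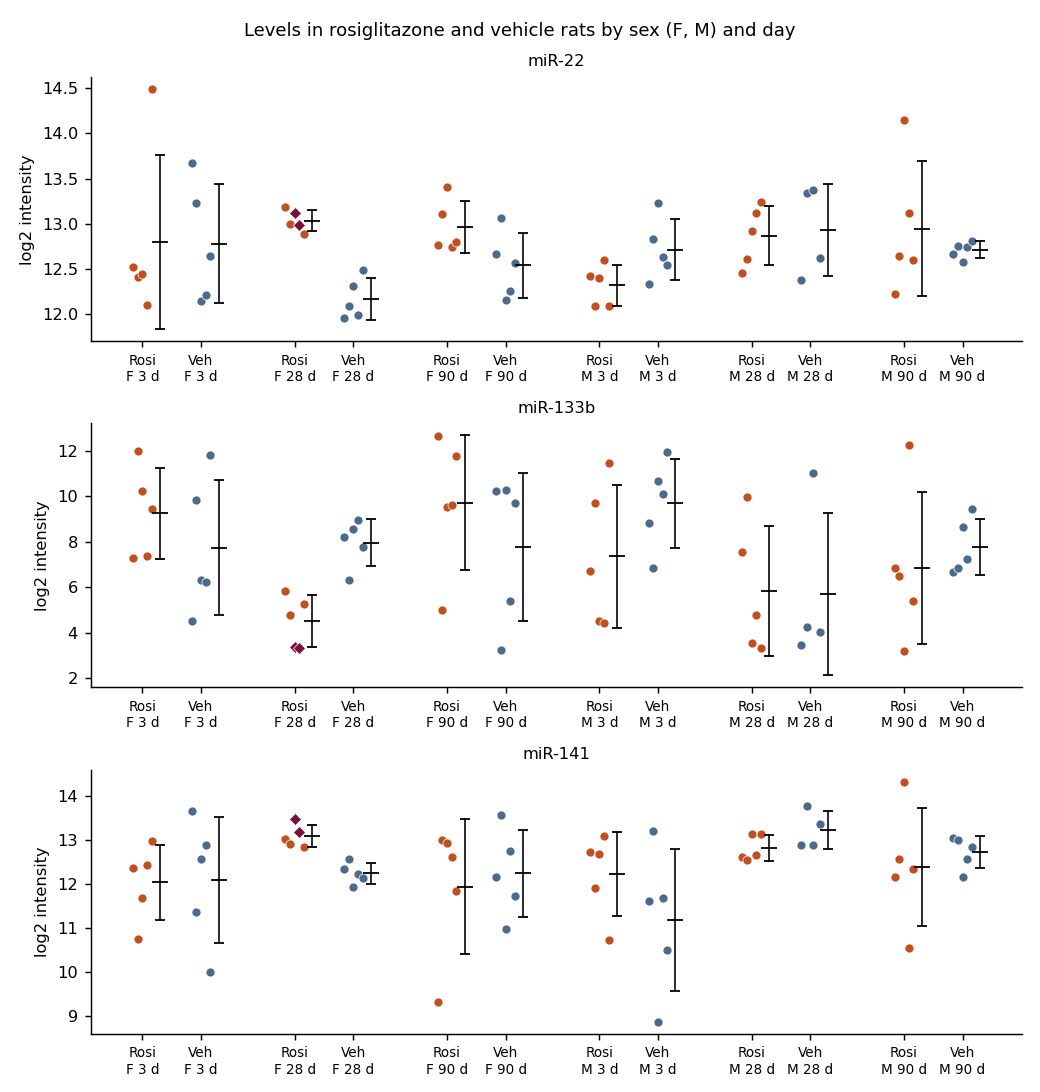
Points are log2 intensities of miR-22, miR-133b and miR-141 in each rosiglitazone (Rosi, left) and vehicle (Veh, right) array by sex (F, M) and day (d), with the mean and SD as bars. Diamonds are replicates 3 and 4 of the rosiglitazone females at day 28. The pair of day-28 female groups is the 1 of 6 where neither miR-22 nor miR-133b overlaps.

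Against males of day 28, the female effect differed for 68 of 301 miRNAs (22.6%), 48 with a higher and 20 with a lower difference in females. Of the 4 vehicle male arrays, replicates 5, 3 and 4 were among the 6 lowest of the 116 arrays in median correlation with the other arrays, at 0.509, 0.568 and 0.688. Without these 3 arrays 7 miRNAs passed, with a single vehicle male left that is assumed to vary like the other groups, so fewer arrays also enter that test. Without rosiglitazone replicates 3 and 4 of the females, 44 passed, 41 with a higher and 3 with a lower difference, so the lower side shrank most. Rosiglitazone replicate 4 of each sex at day 28 was also among the 6 arrays lowest in median correlation, at 0.577 in males and 0.664 in females.

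The 3 smallest p on the higher side were those of let-7a-1*, miR-26b* and miR-191*. let-7a-1* read 3.64 to 3.83 with rosiglitazone and 3.25 to 3.58 with vehicle in females. In males it read 3.25 to 4.17 with rosiglitazone, against 3.71, 7.64, 6.87 and 7.46 with vehicle, where 3 vehicle males held the high values. The difference between the effects was 3.08 (SE 0.38, adjusted p = 6.50e-10). On the lower side, miR-126 differed by -4.90 (SE 1.10, adjusted p = 0.000227), and it read 8.58, 4.37, 4.60 and 5.36 in the vehicle males, with let-7e and miR-19a after it. In rosiglitazone females, replicate 4 was the lowest array for each, at 4.90 for miR-126, 6.74 for let-7e and 3.52 for miR-19a. The other rosiglitazone females read 9.32 to 11.04, 10.90 to 11.96 and 7.64 to 8.17. miR-878 and miR-743a were also among the 68, at 2.05 and 1.91 (adjusted p = 0.0132 and 0.0377), with replicate 4 far above the other females as described. For miR-22 the effect in females was higher by 0.93 (SE 0.42, adjusted p = 0.101).

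Pioglitazone, the other thiazolidinedione of the series, was given to females for 28 days at 16 and 63 mg/kg/day, so the doses differ from that of rosiglitazone and the values are only set side by side. The same 5 vehicle arrays serve all 3 groups. miR-22 read 12.39, 13.85 and 12.51 with pioglitazone 16, where 2 further arrays failed quality control, and 12.84, 12.67, 12.43, 12.70 and 12.71 with pioglitazone 63, against 11.96 to 12.49 with vehicle. The differences were 0.75 (SE 0.33, adjusted p = 0.365) and 0.50 (SE 0.29, adjusted p = 0.999), beside 0.87 for rosiglitazone, and 1 array of each pioglitazone group lay within the vehicle range. miR-133b averaged 7.28 ± 3.75 (SD, n = 3) and 6.63 ± 2.15 (SD, n = 5) in the 2 pioglitazone groups, against 7.96 ± 1.03 with vehicle. For miR-1 the differences were -0.07 and -0.21, beside -2.04 for rosiglitazone. miR-141 differed by 0.51 and 0.44, and miR-190* by 0.27 and 0.43, none past the adjusted threshold. miR-878 averaged 3.41 ± 0.11 and 3.54 ± 0.25 in the pioglitazone groups, against 3.53 ± 0.13 with vehicle.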

How the data were processed

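Agilent 1-colour (Cy3) miRNA arrays of rat bladder urothelium were read from the values the authors deposited, which are log2 intensities for 301 miRNAs. RMA and limma are named, with no version, by the submitters' processing notes. How background was corrected, probes summarised or dim probes filtered is not given in the sources used here. Array medians differ over the 301 miRNAs, and whether quantiles were equalised between arrays before any filter is not known. No detection calls came with the table, so a miRNA near the floor cannot be told from an absent one.

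Arrays were grouped by treatment, sex and day from the labels, and 3 arrays that the labels mark as failing quality control were left out. A mean for each of 24 groups was fitted to the remaining 116 arrays with limma 3.58.1 in R 4.3.3 (92 residual and 2.33 prior degrees of freedom, median residual SD 0.858), with Benjamini-Hochberg adjustment over 301 miRNAs, a threshold of 0.05 and two-sided tests. Differences between rosiglitazone effects at other days or in males were contrasts of the same fit. Nothing in the labels says that RNA was extracted or hybridised separately, so p-values measure the spread between these samples. No pair of arrays in the comparison was a duplicate by correlation (highest 0.995). The script was tested on simulated data. Named miRNAs were those with the smallest p among an unadjusted p under 0.05 in each direction (12 higher, 10 lower) and the 21 without overlap, 37 in all, with the leading members of each list and of each difference of effects as examples. Other list members that the text names were chosen after their values were seen. These miRNAs and lists were chosen with earlier results of these data known. Arms of older miRNA names were assigned by hand. Alternatives were other scalings, filters, array sets, variance settings and each array left out.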

Additional observations from a re-analysis of the deposited data

Results flagged for a closer look

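A sample far from the other 4 of its group was marked by Dixon's ratio, which chance exceeds in about 1 group in 20. Among the named miRNAs, rosiglitazone replicate 4 was the distant high sample for miR-878 (9.95), miR-743a (10.35), miR-345-3p (10.20), miR-202* (11.83), miR-483* (8.48), miR-188 (11.97), miR-370 (9.26), miR-208* (10.76) and miR-190 (5.93). It was the distant low sample for miR-143 (4.01) and miR-99a (6.68). For miR-99a the other rosiglitazone arrays read 10.61 to 11.12, against 10.60 to 11.27 with vehicle. In the vehicle group, replicate 5 was distant for miR-324-3p (6.55) and replicate 3 for miR-347 (8.02). These 13 values fall mostly in 1 array, so they are not independent of each other, and the cause was not tested.

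The rosiglitazone effect in females differed from that in males at day 28, by the interaction in the same fit, for 68 miRNAs. The vehicle males behind this count included 3 arrays with low correlation to the rest of the series, and 7 miRNAs passed without them.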

How the results depend on the processing

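Counts of miRNAs past the adjusted threshold between rosiglitazone and vehicle females at day 28 were 0 with failed arrays kept, with centred or quantile-normalised arrays, with only brighter miRNAs or female arrays, and without replicates 3 and 4. They were 2 with array medians as a term in the model, 2 when male day-28 groups were left out and 2 with trend and robust moderation, each time miR-878 and miR-743a. The count was 1 (miR-22) with the 2 groups alone, and 33 (31 higher, 2 lower) with array quality weights. Of the named miRNAs, those 33 held miR-22, miR-878, miR-743a, miR-345-3p, miR-190, miR-190* and let-7b. Leaving out 1 array gave 0 to 4: 4 without rosiglitazone replicate 3, 3 without replicate 5, 2 without replicate 1 or 2, and 0 without replicate 4. At an unadjusted p under 0.05 the count was 38 as reported, 40 with centred arrays, 7 without rosiglitazone replicate 4, 6 without replicates 3 and 4, and 1 without both and with centred arrays. With the 2 groups alone it was 46, and 61 with the 2 groups alone and without replicates 3 and 4. Centring turned miR-431 to 0.073. Centring without replicates 3 and 4, chosen after seeing the data, turned miR-409-3p to -0.028, miR-370 to -0.25, let-7a-1* to -0.016, miR-211 to -0.15 and miR-7b to -0.10. The array median difference turned to 0.31 without them.

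The replicate numbers did not pair the samples (same-number correlations -0.34 to 0.35), and a fit with the replicate number as a block called 0, and 55 for the difference from males. For the difference from day 3, array weights gave 11 and every other setting 0. For day 90, leaving out 1 array gave 0 to 7, and other settings 0; the higher counts were 7 and 5 without vehicle replicates 1 and 5 of day 90, and 6 and 3 without rosiglitazone replicates 1 and 3 of day 28. For males, counts were 11 with brighter miRNAs, 16 with the 4 groups alone, 43 with day-28 arrays, 155 with array weights, 44 without rosiglitazone replicates 3 and 4, 7 without the 3 vehicle males that stood apart, and 45 to 96 leaving out 1 array, the lowest without vehicle male replicate 3 or 5 and the highest without replicate 1. The causes were not tested.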
